A study of Arabidopsis thaliana with 2 samples.

Results

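The 6 receptor-like kinase genes of Arabidopsis thaliana described here were each assigned a peak of the transcription factor ERF115: CRK3 (AT1G70530), CRK42 (AT5G40380), BRL3 (AT3G13380), RLK (AT5G67280), AT1G56140 and AT1G34300. They were taken by locus from the authors' deposited table, and they make up 6 of the 608 loci to which its 612 peaks were assigned. Having a peak chose them, so that fact is a description and not a result; over all nuclear protein-coding genes 2.06% were assigned one. The cells were a PSB-D suspension of the ecotype Landsberg erecta kept in the dark. The tagged line carried 35S::ERF115-HBH, in which the constitutive 35S promoter drives ERF115 fused to the HBH affinity tag, and the mock was wild type without the construct. Both were fixed with 0.75% formaldehyde for 10 minutes at 2 days after subculturing and went through a purification on nickel and then streptavidin beads before sequencing. There was 1 library of each and no replicate, so no value below carries an error and no difference was tested. Overexpression from 35S in a cultured cell line limits what the peaks say about ERF115 at its natural level in a root.

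Receptor-like kinases sit in the plasma membrane, with an outer domain that binds a ligand and an inner kinase domain that passes the signal on by phosphorylation. Their subfamilies are defined by the outer domain. Cysteine-rich receptor-like kinases (CRKs) carry cysteine-rich repeats and are linked to stress responses, while leucine-rich repeat kinases include the brassinosteroid receptor BRI1 and the phytosulfokine receptor PSKR1. Phytosulfokine, a sulfated peptide, is the hormone named in the title of the series.

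The values given for a peak are the authors' own. The peak score is the one MACS writes, the negative log10 of the p-value multiplied by 10, so a higher score means stronger evidence for enrichment and not a measured amount of bound protein. Over the whole list the score had a median of 78.9 and a range of 50.01 to 537.85. The lowest of them, at AT2G32580, PHB3 and AT4G04100, were 50.01, 50.13 and 50.14, which marks the lower end of what was deposited. No value below that end was analysed here. ERF115 itself (AT5G07310) was assigned no peak. Read depth is unknown, and values of the mock library by itself were not analysed here.

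The 6 peaks were spread from the upper part of the list to near its end, and none was among the first 70. The scores lay between 54.16 and 157.32, with a median of 82.3 beside 78.9 over all 612 peaks. AT1G56140 had the highest score of the 6 and RLK the lowest, close to the end of the list. A score of at least 75 was reached by 4 of the 6, beside 54.4% of all peaks, and 4 of the 6 were in the better-scoring 50% of the list. The ranks were 71 for AT1G56140, 133 for AT1G34300, 265 for CRK3, 301 for CRK42, 485 for BRL3 and 545 for RLK. With 1 library the spread of a score between repeats is unknown, so this order is that of a single measurement.

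**Figure D1:**
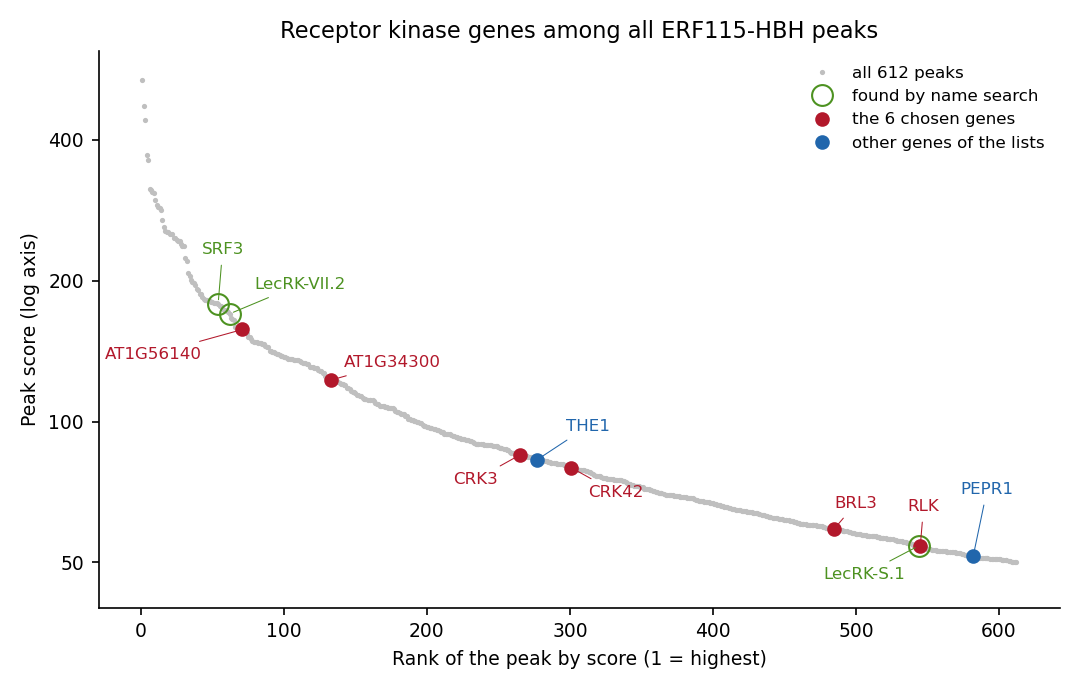
Score of every ERF115-HBH peak (log axis) against its rank, 1 being the highest. Red points are the 6 chosen genes, blue points other genes of the receptor kinase lists and green rings genes found only by a search of names. Each point is 1 peak of 1 library, and the red points run from rank 71 (AT1G56140) to rank 545 (RLK).

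Both CRK peaks lay on the upstream side of the gene by the authors' label. The CRK3 peak was on chromosome 1, 26591363 to 26594068 (TAIR10), spanned 2706 bp and was labelled intergenic 5'. Its score was 84.86. CRK2, another gene of the subfamily, is next to CRK3 in gene order and was assigned no peak, nor was EDA24 on the other side. The CRK42 peak, also intergenic 5', lay on chromosome 5, 16150037 to 16151598, and spanned 1562 bp. It scored 79.69, which is 5.17 below CRK3, and the 2 genes stood 36 ranks apart. Neither reached a score of 100.

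BRL3 encodes a close relative of BRI1 that binds brassinosteroids and is known from vascular tissue. Its peak lay on chromosome 3, 4342259 to 4347449, and was labelled UTR 5'. The score was 59.06, below the median of the list. The peak was the widest of the 6 at 5191 bp, number 26 by width among all 612, and 95.8% of peaks were narrower. The authors' reference point, the single position given inside each peak, lay 814 bp from the end with the higher coordinate, so most of the peak extended to the other side. Each peak carries 1 gene and 1 label, so a broad peak such as this can also cover neighbouring sequence that the label leaves out.

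RLK (AT5G67280) is named in the table only as a receptor-like kinase. Its peak was the one of the 6 with a label on the 3' side, coding 3', and lay on chromosome 5, 26842906 to 26844556. It spanned 1651 bp and scored 54.16. The next gene along the chromosome, AT5G67290, had a peak of its own at 26849056 to 26854755 with a score of 204.97, labelled intergenic 5'. Only 4.50 kb separated the ends of the 2 peaks, and the score at the neighbour was the higher by 150.81. Whether the peak at RLK is separate from the signal at its neighbour was not tested.

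AT1G56140 and AT1G34300 have no symbol and no description in the tables used here, and are called receptor-like kinases because they were chosen as such. The AT1G56140 peak lay on chromosome 1, 21006695 to 21008922, spanned 2228 bp and scored 157.32. The AT1G34300 peak lay on the same chromosome at 12502732 to 12504240, spanned 1509 bp and scored 122.71. Both were labelled intergenic 5'. They were the only 2 of the 6 above a score of 100, near the share of all peaks at that level, 31.4%. The genes on either side of AT1G56140, which are AT1G56130 and AT1G56145, had no peak, and neither had RLP5 and ARF12 beside AT1G34300. RLP5 is named as a receptor-like protein and ARF12 as an auxin response factor.

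The authors' deposited table also marks these 2 loci with TP, under a heading, DE, that nothing used here explains. The mark stood beside 22 of all 612 peaks (3.59%) and beside 2 of the 6 described here. CRK3, CRK42, BRL3 and RLK were not marked. The peak of the phytosulfokine precursor gene PSK5 was marked too. PSK5 scored 59.13 at rank 483, only 0.07 above BRL3.

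**Figure D2:**
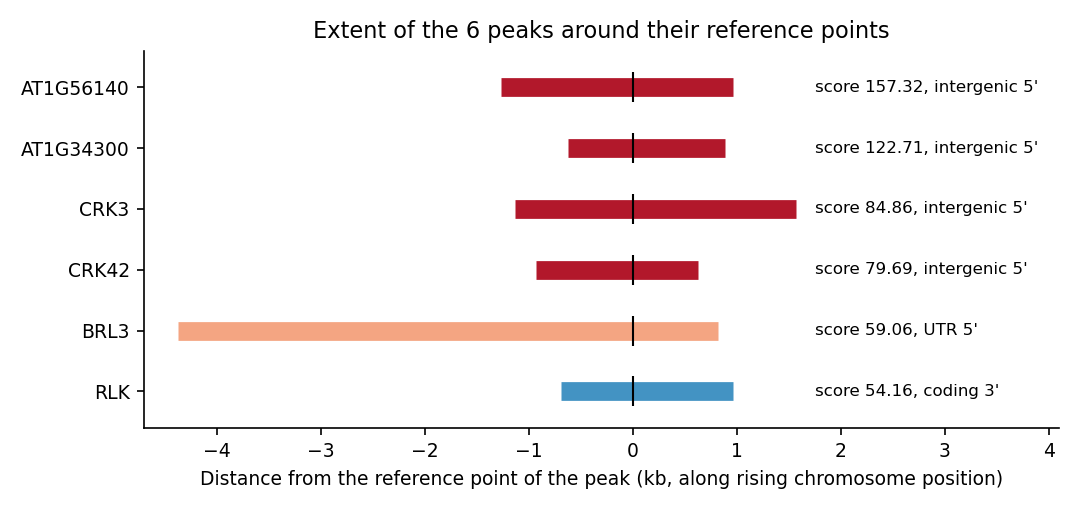
Extent of each of the 6 peaks in kb from its own reference point (black tick), in order of rising chromosome position, with genes sorted by score and bars coloured by location label. BRL3 has the widest peak (5191 bp) and the most one-sided one; AT1G34300 has the narrowest (1509 bp).

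By label, 4 of the 6 peaks were intergenic 5', as were 275 of all 612 (44.9%). With the UTR 5' label of BRL3, 5 of the 6 lay on the 5' side, beside 399 of 612 peaks (65.2%). The labels were read as written and were not checked against gene strand. Widths of the 6 had a median of 1940 bp, beside 1894 bp for the whole list. The reference point lay between 627 and 1138 bp from the nearer end of the peak, with a median of 751 bp beside 652 bp over all peaks.

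The surroundings of the 6 peaks differed from isolated to crowded. AT1G34300 stood most alone: its nearest other peak, at SBT3.3 (score 52.41), was 557 kb away, and 98.0% of all peaks had a neighbour nearer than that. CRK3 came next, 222 kb from the peak at AT1G71110 (score 171.82). Neither had another peak within 100 kb of its reference point, which held for 24.5% of peaks. CRK42 was 69.8 kb from a peak at AGL43 (score 84.84) and had 4 others within 100 kb, a number that 14.5% of all peaks reached. BRL3 was 47.4 kb from one at OVA5 (score 52.4) and had 5, reached by 7.84%. The peak at AT1G56140 was 37.4 kb from one at LOS1 (score 64.99) and had 2, reached by 47.2%.

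RLK stood in the densest stretch, with 6 other peaks within 100 kb, a number that 3.76% of all peaks reached. Their scores ran from 51.95 at TOE3 to 204.97 at AT5G67290. The latter alone scored above 100. The median number of other peaks within 100 kb was 3 over the 6 genes and 1 over all peaks. By distance the 6 looked less crowded: the median to the nearest other peak was 58.6 kb over the 6 genes and 37.4 kb over all peaks. When only peaks scoring at least 75 were counted as neighbours, the medians were 99.3 kb and 80.7 kb, and the distance for AT1G56140 rose from 37.4 to 128.7 kb and that for AT1G34300 from 557 to 900.1 kb.

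**Figure D3:**
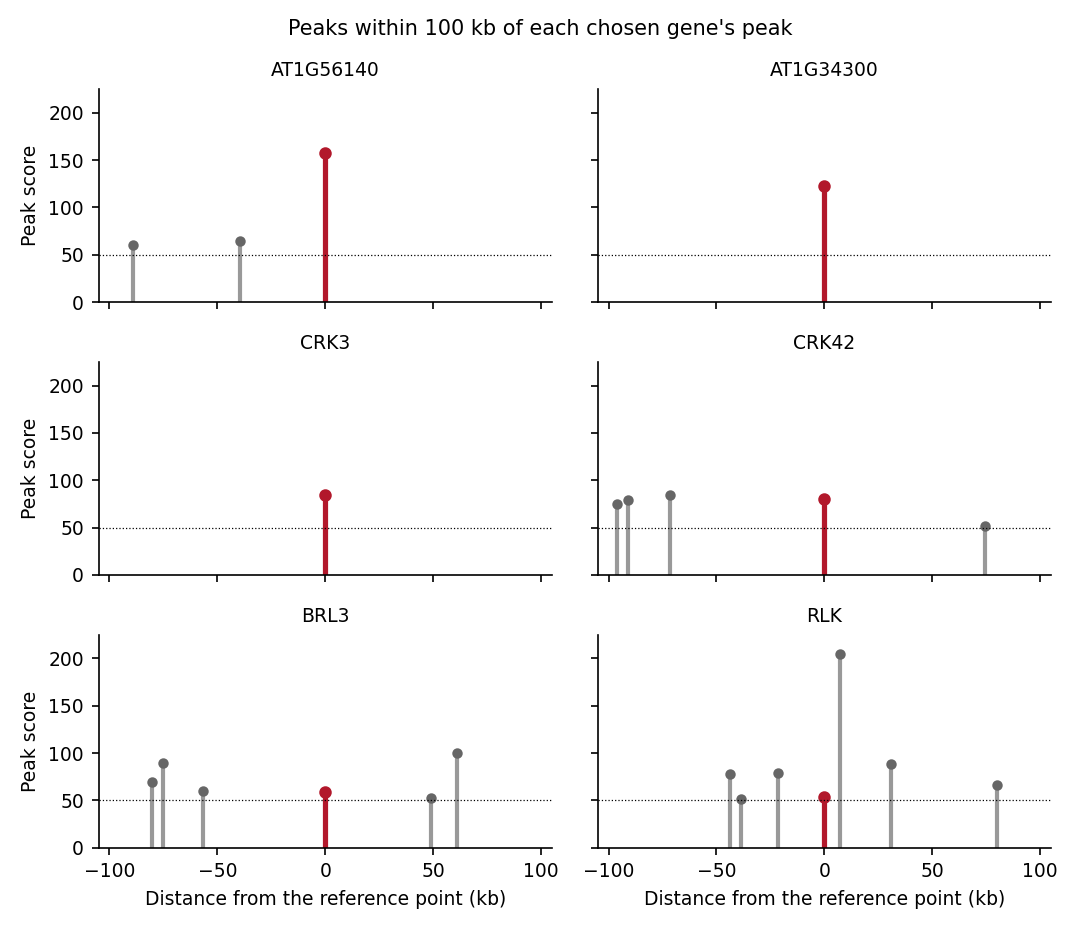
Peaks within 100 kb of each chosen gene's peak, as score against distance in kb between reference points. Red marks the chosen gene, grey the other peaks and the dotted line a score of 50, just under the lowest score in the list; AT1G34300 and CRK3 stand alone, while RLK has 6 other peaks around it and the tallest of them is 7.12 kb away.

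Each of the 6 had peaks of nearly equal score directly above and below it. The gene directly above RLK by score was AT1G15530, the L-type lectin receptor kinase LecRK-S.1, with 54.28, and the one below was AT1G67920 with 54.15. BRL3 stood between AT4G04730 (score 59.11) and ERF10, a transcription factor of the same family as ERF115 (score 59.02). CRK3 stood between AT5G39980 (84.92) and AGL43 (84.84), the latter being the gene of the peak nearest to CRK42. CRK42 stood between AT3G27860 (79.98) and AT5G40150 (79.57). AT1G56140 stood between AT3G60910 (157.48) and AT5G13760 (156.28), and AT1G34300 between AT2G35920 (123.55) and PBC2 (122.51). No gap in these 12 steps of score was larger than 1.04. Steps this small come largely from ranking 612 peaks, so nothing is read from which genes stand next to each other.

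The 6 genes were then set among their relatives with 9 lists of 123 protein-coding genes. The lists were drawn up from general knowledge of the families, around the 6 genes, and they do not hold every receptor kinase. In all, 8 listed genes had a peak, and without the 6 chosen genes 2 of 117 (1.71%). The names table holds 27444 nuclear protein-coding genes, and 564 of them had one, or 2.06%. Because the lists were built around genes picked for their peaks, nothing is read from the difference between the 6.50% of all listed genes and that background. If genes next to an assigned one are counted too, 15 listed genes qualify, or 9 of the 117 without the chosen genes, beside 5.93% of all. Of those 9, CRK2 and both neighbours of AT1G56140 qualify through a chosen gene.

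CRK3 and CRK42 were the 2 of 44 CRK genes with a peak. The subfamily is concentrated on chromosome 4, with 38 of the 44 genes there, and none of those had a peak. At the 2.06% of all protein-coding genes, a group of that size would hold fewer than 1 gene with a peak, so the lack of any is near the background. The genes on chromosome 4 include an unbroken run from CRK5 to CRK19. CRK3 was 1 of 4 CRK genes on chromosome 1, and CRK42 was the one listed on chromosome 5.

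BRL3 was the 1 of 4 genes of the BRI1 family with a peak, and BRI1, BRL1 and BRL2 had none. None of 10 other genes of the brassinosteroid pathway had one. Those cover synthesis (DWF4, CPD, DET2), inactivation (BAS1), the receptor inhibitor BKI1, the kinases BSK1 and BIN2, the phosphatase BSU1 and the transcription factors BZR1 and BES1. Nor had any of the 5 SERK co-receptors, among them BAK1, the partner of BRI1. Outside the list, and named after their values were seen, BSK7, a brassinosteroid-signalling kinase by name, had a peak labelled intergenic 5' that scored 54.99. SK13, a shaggy-like kinase by name, had a UTR 5' peak with a score of 111.34. The receptors for phytosulfokine and the related PSY peptide, PSKR1, PSKR2 and PSY1R, had no peak. Over all nuclear protein-coding genes 2.06% had a peak, and at that share lists as short as these would mostly hold none. Nothing is therefore read from these counts.

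In the remaining subfamily lists, AT1G56140 was the 1 of 13 genes of the LRR-VIII-2 list with a peak, RLK the 1 of 6 of the LRR-III list and AT1G34300 the 1 of 12 of the G-type lectin list. Placement of the 2 unnamed loci in these lists was not checked, since the tables used here do not describe them. The lists were built around the chosen genes and do not hold every gene of the subfamilies, so nothing is read from the counts. Over all nuclear protein-coding genes 2.06% had a peak. Among 26 other well-known receptor kinases, 2 had a peak, beside the 2.06% of all genes, and nothing is read from so short a list. THE1 (AT5G54380), a sensor of cell wall integrity, had a peak labelled intergenic 5' at chromosome 5, 22079979 to 22083187, scoring 82.86, between those of CRK3 and CRK42. PEPR1 (AT1G73080), the receptor for the danger peptide Pep1, had one at chromosome 1, 27483664 to 27484870, also intergenic 5', with a score of 51.54. That is below all 6 chosen genes. The other 24 had none, among them the flagellin receptor FLS2, the chitin receptor CERK1, FER and the stem cell receptor CLV1.

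**Figure D4:**
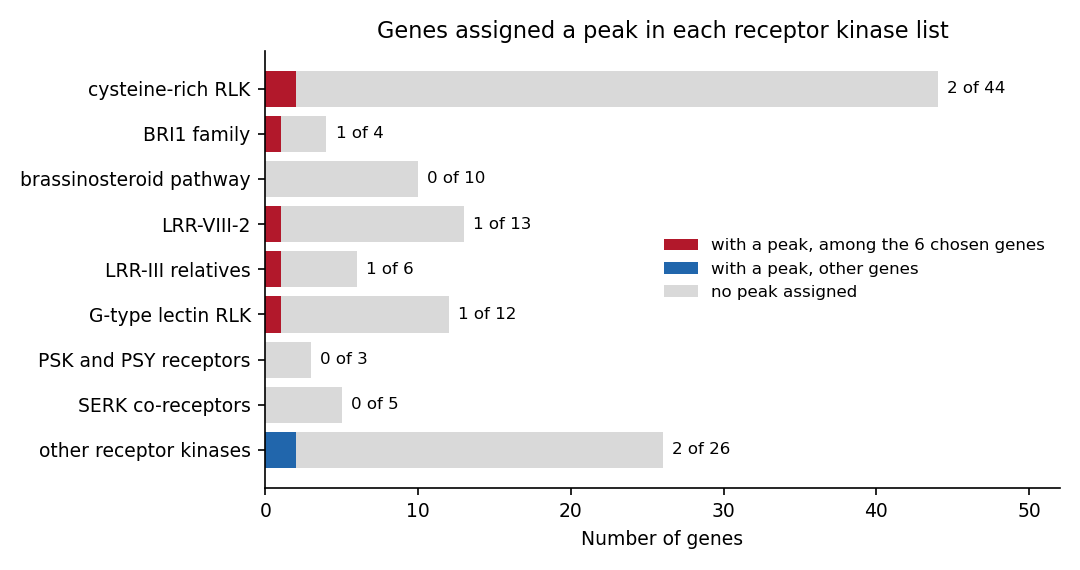
Number of genes in each receptor kinase list that were assigned a peak (red, the 6 chosen genes; blue, other genes) or none (grey). Each list built around a chosen gene holds no further gene with a peak, but the lists are partial and were drawn up with earlier results known. The blue genes are THE1 and PEPR1.

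A search of symbols and synonyms for receptor kinase words, chosen after the values were seen, matched 157 nuclear protein-coding genes. Of these 6 had a peak (3.82%, beside 2.06% of all such genes), and CRK3, CRK42 and RLK are among the 6. Without these chosen genes 3 of 154 (1.95%) remained, near that background. They were SRF3 (AT4G03390), LecRK-VII.2 (AT4G28350) and LecRK-S.1 (AT1G15530). SRF3, of the STRUBBELIG-receptor family, had a score of 178.45 at rank 54, and LecRK-VII.2 had 169.94 at rank 62. Both scored above AT1G56140. LecRK-VII.2 carried the mark TP, and LecRK-S.1 did not. The words did not match BRL3, AT1G56140, AT1G34300, THE1 or PEPR1, so these shares are those of the matched genes and not of all receptor kinases.

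Neither the lists nor the name search covers every receptor kinase, so the total given here can miss others with a peak. Lists, names and the chosen genes together gave 11 receptor kinase genes with a peak, on 4 chromosomes. Of their peaks 9 were intergenic 5', including all 5 of those outside the chosen genes, and 4 scored at least 100, beside 44.9% and 31.4% of all peaks. The mark TP, which 3.59% of all peaks carry, stood beside 3 of them: AT1G56140, AT1G34300 and LecRK-VII.2. Of the 11, those 3 and SRF3 were the 4 scoring at least 100. The 11 include the chosen genes, genes of lists built around them and genes of a search made after the values were seen. Nothing is therefore read from the differences between their shares and those of all peaks.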

How the data were processed

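The series holds 1 ERF115-HBH library and 1 wild-type mock library, which were sequenced. The submitters' processing notes name the build TAIR10, the peak caller MACS 1.4.2 and the read aligner BWA 0.5.9, beside Picard, SAMtools 0.1.18 and CASAVA 1.8.2, with no parameters. The authors deposited a peak list and an annotated copy, with a score per peak. How the libraries were scaled for that score is not stated, and the score was used here as given. Scores in both files were equal for all 612 peaks, and the reference point lay inside all 612. The deposited Z score is a rescaling of the score and was not used. Read counts were not analysed here, so the depth is unknown and no interval is given.

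Ranks, widths, distances between peak ends on a chromosome and counts of listed genes were computed with Python 3.11.15 and pandas 2.3.3. The distance step was checked on simulated peaks. Coordinates are those of the deposited peaks, 1-based. Names and gene order came from an NCBI RefSeq table of assembly TAIR10.1, with none of its coordinates printed. It held all 124 loci written into the lists, of which 1, no protein-coding gene there, was dropped. The members and lists were chosen with earlier results of these data known. By rule, named genes are the members, list genes with a peak, and neighbours by score, peak distance and gene order. Outside it, and named after their values were seen, are list genes without a peak, genes found by name or in the 100 kb windows, the lowest peaks, BSK7, SK13, PSK5 and ERF115. No genome, promoter or protein sequence was used, so the planned motif search and protein comparison were not run. Alternatives were score thresholds, 5' labels and adjacent genes.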

Additional observations from a re-analysis of the deposited data

How the results depend on the processing

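Leaving out a replicate could not be run. No paired analysis was possible because there is a single library of each kind. All 6 genes have a peak in the deposited list. Of these 4 were left at a score of at least 75 and among the 306 peaks with the highest scores, 5 with 5' labels only, and 2 at a score of at least 100. Of all 612 peaks, 54.4% scored at least 75, 50% were among the 306, 65.2% had 5' labels and 31.4% scored at least 100. The same shares stand beside the counts of listed and named genes that follow. Listed genes with a peak numbered 8. They fell to 5 at a score of at least 75, to 5 among the 306 peaks and to 2 at a score of at least 100. They became 7 with 5' labels only, 15 when genes adjacent to the assigned one were counted, and 2 without the chosen genes. Counting adjacent genes added CRK2, BKI1, AT1G56130, AT1G56145, SD2-5, CLV1 and BAM2. Over all nuclear protein-coding genes it raised the share from 2.06% to 5.93%. Genes found by name, 6, fell to 2 at a score of at least 100, to 4 among the 306 peaks and to 3 without the chosen genes. A higher threshold leaves fewer peaks by construction. The median distance to the nearest other peak, 58.6 kb, was 60.2 kb between reference points and 99.3 kb when only peaks scoring at least 75 were counted. The name search and the counts without the chosen genes were settings chosen after seeing the data. The motif and protein alternatives were not run, since no sequence was used. Since the depth is unknown, a gene without a peak is not shown to be unbound.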
